A study of Mus musculus with 4 samples.

Results

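The genes described here are 43 markers of blood-derived immune cells (leukocytes), taken by symbol from a table of 54021 genes measured by RNA-seq in reconstituted ovaries (rOvaries). They were chosen by name, as known markers, and divide into 2 pan-leukocyte genes, 19 macrophage genes, 9 T cell genes, 6 B and plasma cell genes, 3 natural killer (NK) and cytotoxic cell genes, 2 neutrophil genes and 2 mast cell genes. An rOvary is a graft that forms when aggregates of female fetal primordial germ cells and gonadal somatic cells are placed under the kidney capsule. The donors here were fetuses of C57BL/6 females crossed with C57BL/6-actin-GFP males, and every recipient was a bilaterally ovariectomized second-generation telomerase-deficient female (G2 Terc-/-) on the C57BL/6 background, a model of premature reproductive ageing. The methods of the study give the age of these recipients as 2 to 3 months (10 weeks on average) in one place and 3 to 5 months in another. The 2 INK128 libraries came from grafts of recipients that drank INK128, an inhibitor of mTORC1 and mTORC2. The labels give its dose as 0.75 uM per g and the methods as 30 μM in the water, and the 2 control libraries came from the same kind of recipient without INK128. All grafts were collected 4 weeks after transplantation. Neither source says whether the control water held the solvent, or whether each library came from a separate animal. The p-values may therefore not measure the spread between animals. The RNA came from whole grafts, and no source describes a separation of donor cells, recipient cells and adjoining kidney.

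The comparison addresses whether transcripts of immune cells stood at other levels in grafts of recipients that took INK128. Leukocytes enter a graft with the blood and through its vessels. Resident macrophages of the ovary clear dying follicle cells and regressing corpora lutea, T and B cells recognise antigens through receptors that each clone rearranges, and mast cells lie along vessels and store proteases and histamine in granules. mTOR inhibitors are known as immunosuppressants because mTORC1 supports the growth and division of activated lymphocytes. In whole tissue, fewer cells of a type and less RNA per cell cannot be told apart.

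Levels are counts scaled to library size (CPM), corrected by edgeR's TMM factors, and values of the 4 libraries are given in the order INK128 1, INK128 2, control 1 and control 3. The libraries held 19130209, 23029089, 21585292 and 22812603 counts, and 3 counts corresponded to between 0.124 and 0.164 CPM. The INK128 pair was close (Pearson's r of log2 CPM over the tested genes 0.987, with 2.25% of genes more than 2-fold apart), while the control pair was not (r 0.883, 20.9% of genes). Control 1 held 1021 counts of 4 Y-linked genes, against 2, 0 and 0 in INK128 1, INK128 2 and control 3, although donors and recipients are described as female. In control 3 the summed level of 11 oocyte markers was 27.5 CPM, against 825 to 1189 CPM in the other 3 libraries. Because both controls stand apart from each other, the main counts are also given without each of them.

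The 43 marker genes together gave 11992, 13133, 24295 and 31316 counts, which is 0.0627%, 0.057%, 0.113% and 0.137% of each library. Their summed level was 657 and 614 CPM with INK128 and 1055 and 1297 CPM in the controls, so that the groups did not overlap. Of the 43 genes, 38 had a mean CPM above 1 and were tested, and 19 had a mean CPM above 10. The 5 untested genes were Cd8b1, Cd79a, Gzmb, S100a8 and S100a9. Of the 38, 8 (Cd3e, Cd4, Cd8a, Cd5, Cd79b, Gzma, Cpa3 and Mcpt4) passed through the controls alone, with a mean CPM before TMM correction of at most 1 with INK128, and 0 passed through INK128 alone (7.12% and 1.88% of all genes tested). Such a gene had to be lower with INK128 to be tested as it was, so the counts are also given for the 30 genes above 1 in both groups. Of the 38 tested genes, 35 had a log2 fold change (INK128 over control) below 0, with a median of -0.91, against a median of -0.04 over all 17631 genes tested. In 25 of the 38 both INK128 libraries lay below both controls (65.8%, against 32.9% of all genes tested), in 0 both lay above both controls (33.1% of all genes), and in 13 the groups overlapped. Of the 30 genes above a mean CPM of 1 in both groups, 19 were below (63.3%, against 30.2% of 16045 such genes). Against control 3 alone, 34 of the 38 lay below in both INK128 libraries (44.5% of all genes), and against control 1 alone 27 did (44.5%). In the same libraries 15 markers of the kidney nephron summed to 97.2, 202, 692 and 1569 CPM, and the part of kidney tissue in the levels of the marker genes was not tested.

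With edgeR's quasi-likelihood test and Benjamini-Hochberg adjustment over the 17631 genes, 0 of the 38 genes passed the call, which needed over 1.5-fold and an adjusted p under 0.05, and 0% of all genes did in either direction. The smallest adjusted p of any gene was 0.0561 in this edgeR fit. At an unadjusted p below 0.05, 15 of the 38 were lower with INK128 (39.5%, against 17.6% of all genes) and 0 higher (15.1% of all genes). Of the 15, Cd3e, Cd4, Cpa3 and Mcpt4 had passed the filter through the controls alone. The expression limit of the study, a CPM above 10, was read as a mean. With it, edgeR called 1 of the 19 genes, Mpeg1, lower and 0 higher (3.04% of 11758 genes in each direction). The study used DESeq2 with this limit. In that pairing 11 of the 19 were called lower (15.1% of the 11758 genes) and 0 higher (13.6%). They included C1qc and Mrc1 (adjusted p = 0.0394 and 0.0462, DESeq2). DESeq2 called 13 of the 38 lower (34.2%, against 13.6% of all genes) and 0 higher (10.2%), and limma voom called 0. The 13 were Ptprc, Laptm5, Adgre1, Csf1r, Lyz2, Fcgr2b, Mpeg1, Cd3e, Cd4, Igkc, Jchain, Cpa3 and Mcpt4, and all of them were lower in both INK128 libraries than in both controls. Of these, 9 were among the 30 genes above a mean CPM of 1 in both groups (30%, against 11.4% of all such genes), and Cd3e, Cd4, Cpa3 and Mcpt4 were not. With 2 libraries a group, an exact permutation test of a single value cannot give a two-sided p below 0.333.

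**Figure D1:**
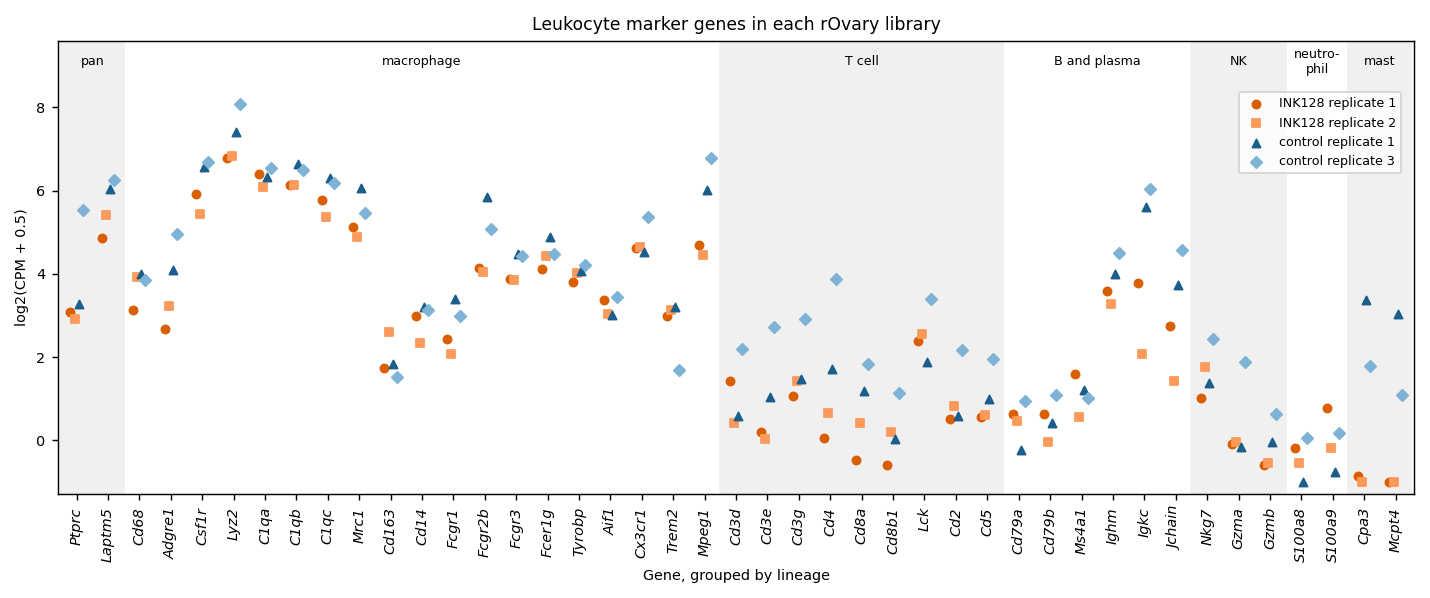
Level of each of the 43 leukocyte marker genes in each of the 4 rOvary libraries, as log2(CPM + 0.5) on the vertical axis, with genes grouped by lineage on the horizontal axis and 1 point per library. Points of the INK128 libraries (orange) lie below both controls (blue) in 26 of the 43 genes, and control replicate 3 stands above the other 3 libraries in all 9 T cell genes.

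Several of the genes are known targets of PU.1, the factor that directs myeloid cells and whose core site is GAGGAA. Promoters from RefSeq (GRCm38.p6, 250 bases before to 50 bases after a start) were found for 31 of the 43 genes, as 34 promoters, and GAGGAA stood on either strand (as GAGGAA or TTCCTC) in 19 of them (55.9%), against 28.3% of 32851 promoters. By lineage these were 9 of 15 macrophage promoters, 5 of 7 T cell, 2 of 3 pan-leukocyte, 1 of 2 B and plasma cell, 1 of 3 NK and cytotoxic, 1 of 2 neutrophil and 0 of 2 mast cell promoters. A match describes the letters only and is not shown to be a site. The 150 bases before the start are printed for 5 genes that hold the letters, in capitals, and for Mpeg1, the gene with the smallest adjusted p among the macrophage genes, which does not hold them in this window. All are read along the gene's strand: Laptm5 at chr4:130913166-130913315 (plus), Mrc1 at chr2:14229264-14229413 (plus), Fcgr1 at chr3:96293970-96294119 (minus), C1qb at chr4:136886201-136886350 (minus), Cd3e at chr9:45009612-45009761 (minus) and Mpeg1 at chr19:12460620-12460769 (plus).
Laptm5: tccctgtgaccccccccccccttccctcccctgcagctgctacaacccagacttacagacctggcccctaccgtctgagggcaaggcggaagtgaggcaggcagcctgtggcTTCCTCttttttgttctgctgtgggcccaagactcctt
Mrc1: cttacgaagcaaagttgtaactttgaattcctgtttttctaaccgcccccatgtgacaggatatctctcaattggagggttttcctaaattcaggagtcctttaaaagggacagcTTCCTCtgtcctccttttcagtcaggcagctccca
Fcgr1: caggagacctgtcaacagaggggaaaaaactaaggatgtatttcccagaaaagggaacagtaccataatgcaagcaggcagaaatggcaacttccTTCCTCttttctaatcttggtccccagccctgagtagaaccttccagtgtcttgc
C1qb: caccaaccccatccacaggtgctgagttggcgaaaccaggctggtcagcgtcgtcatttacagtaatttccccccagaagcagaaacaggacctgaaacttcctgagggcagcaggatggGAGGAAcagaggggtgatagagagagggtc
Cd3e: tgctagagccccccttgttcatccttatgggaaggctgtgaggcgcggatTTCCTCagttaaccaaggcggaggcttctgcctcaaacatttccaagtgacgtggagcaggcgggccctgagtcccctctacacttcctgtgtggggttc
Mpeg1: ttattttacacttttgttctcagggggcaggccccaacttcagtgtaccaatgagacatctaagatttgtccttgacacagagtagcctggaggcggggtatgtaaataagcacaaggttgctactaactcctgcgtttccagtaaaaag

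Both pan-leukocyte genes were lower in both INK128 libraries than in both controls, but only Laptm5 had controls that resembled each other. Laptm5, a lysosomal membrane protein of leukocytes that dampens antigen receptor signalling, stood at 28.4, 41.8, 65.3 and 75.9 CPM. The log2 fold change was -1.01 (standard error, SE, 0.26), with an adjusted p of 0.08 in edgeR and 0.0135 in DESeq2. Ptprc, the CD45 phosphatase found on all nucleated blood cells (chromosome 1 of mm10, 138062861 to 138175708), stood at 8, 7.02, 9.25 and 46.0 CPM. Control 1 was thus close to the INK128 pair, and control 3 alone stood well above it. Its log2 fold change was -1.88 (SE 0.79, adjusted p = 0.181 in edgeR and 0.0483 in DESeq2), but -0.30 without control 3. Summed over both genes, the level was 36.4, 48.8, 74.5 and 122 CPM. Ptprc has the longest exons of the 43 genes (18313 bases), and with offsets for exon length in each library its log2 fold change was -1.18.

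Macrophage genes supplied most of the counts: 86.6%, 86.3%, 81.9% and 76.4% of all counts of the 43 genes. Their summed level was 569, 530, 864 and 991 CPM. The mean of the controls, 928 ± 89.8 CPM (SD, n = 2), was 1.69-fold that of the INK128 pair, 550 ± 27.7 CPM (SD, n = 2). Of the 19 genes, all tested, 13 were lower in both INK128 libraries than in both controls (68.4%, against 32.9% of all genes tested) and 17 had a log2 fold change below 0. The median was -0.51. With a mean CPM above 1, 5 (Adgre1, Csf1r, Lyz2, Fcgr2b and Mpeg1) were called lower by DESeq2 (26.3%, against 13.6% of all genes). Compared per kilobase of exon, the highest mean levels were those of Lyz2 (126 CPM per kb), C1qa (77.7), C1qb (75.4) and C1qc (31.7), and the lowest that of Cd163 (0.633).

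**Figure D2:**
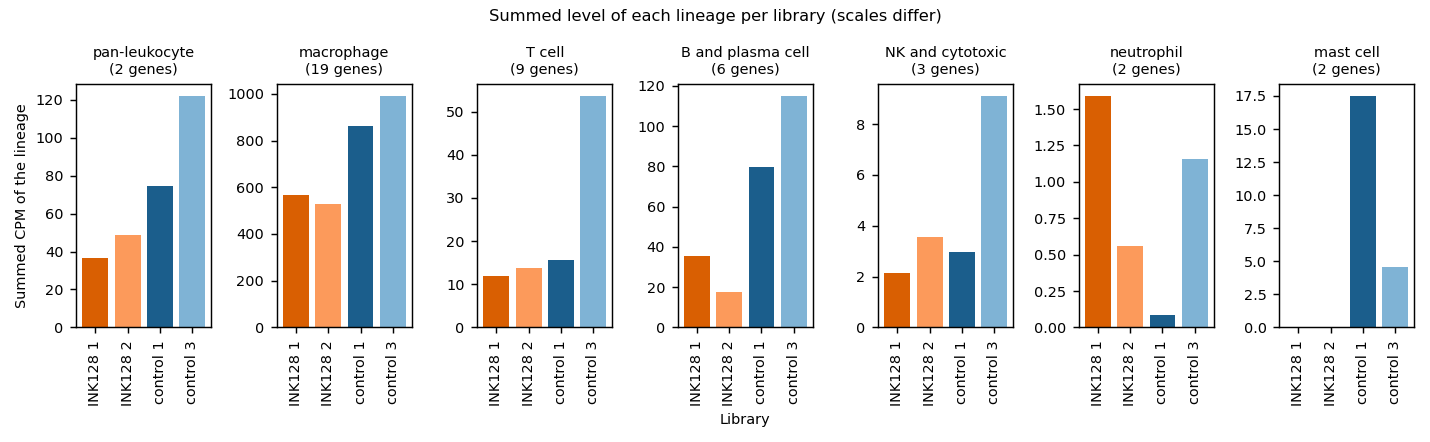
Summed CPM of each lineage's marker genes (bars, each panel with its own axis from 0) in the 4 rOvary libraries, with INK128 in orange and controls in blue. The macrophage sum is 569 and 530 CPM with INK128 and 864 and 991 CPM in controls, the T cell sum is high in control 3 alone, and the mast cell sum is near 0 in both INK128 libraries.

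Mpeg1 encodes perforin-2, a pore-forming protein with which macrophages kill engulfed bacteria (chromosome 19 of mm10, 12460779 to 12465283). It stood at 25.5, 21.4, 63.8 and 109 CPM. Both controls were above both INK128 libraries, with means of 86.1 ± 31.6 and 23.4 ± 2.9 CPM (SD, n = 2 each). With the filter at a mean CPM of 10 it fell by 1.93 on the log2 scale (adjusted p = 0.048, edgeR quasi-likelihood). Over the wider set of 17631 genes the log2 fold change was -1.88 (SE 0.32), with an adjusted p of 0.0562 in edgeR and 2.12e-05 in DESeq2. Leaving out each library in turn kept it between -2.21 and -1.45.

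The surface receptors of macrophages stood lower with INK128 in part. Adgre1, the F4/80 antigen by which mouse macrophages are sorted, stood at 5.92, 8.94, 16.5 and 30.7 CPM, with a log2 fold change of -1.67 (SE 0.44, adjusted p = 0.0827 in edgeR and 0.00767 in DESeq2). Csf1r, the receptor for the growth factor that macrophages need to survive, stood at 59.5, 42.6, 94.0 and 103 CPM. Its log2 fold change was -0.95 (SE 0.23, adjusted p = 0.075 in edgeR and 0.0105 in DESeq2). Both genes separated the groups, and the controls were close to each other for Csf1r but 1.87-fold apart for Adgre1. Of the exons of Csf1r, a stretch overlaps Hmgxb3 on the other strand, and since the use of strand in the counting is not stated, reads there cannot be assigned. Exons of Fcgr2b, Cx3cr1, Cd3e and Lck overlap other counted genes over 25 to 155 bases. Mrc1, the mannose receptor CD206, stood at 34.4, 29.2, 66.0 and 43.9 CPM (log2 fold change -0.79, SE 0.27, adjusted p = 0.128, edgeR). Cd163, the scavenger receptor for haemoglobin, stood at 2.85, 5.57, 3.04 and 2.36 CPM and overlapped between the groups. Cx3cr1, the fractalkine receptor, overlapped too, at 24.2, 24.5, 22.5 and 40.5 CPM, with only control 3 apart. Trem2, a lipid receptor of phagocytes, was low in control 3 alone: it stood at 7.45, 8.28, 8.68 and 2.73 CPM. Its log2 fold change of 0.46 turned to -0.14 without control 3. Cd14, the co-receptor for bacterial lipopolysaccharide, stood at 7.45, 4.54, 8.73 and 8.28 CPM (log2 fold change -0.51, SE 0.40).

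The Fc receptors bind the constant part of antibodies, and the inhibitory one had the lowest log2 fold change. Fcgr2b, which carries an inhibitory motif and is also made by B cells, stood at 17.2, 16.1, 57.0 and 33.0 CPM. The INK128 libraries were alike and both controls higher, with control 1 above control 3. The log2 fold change was -1.44 (SE 0.32, adjusted p = 0.0691 in edgeR and 0.00281 in DESeq2). The activating receptors also separated the groups, by less. Fcgr1, the high-affinity receptor, stood at 4.93, 3.74, 9.94 and 7.37 CPM and Fcgr3 at 14.3, 14.0, 21.9 and 21.2 CPM. Their log2 fold changes were -1.0 and -0.60, with adjusted p-values of 0.157 and 0.153 in edgeR. The adaptors through which such receptors signal were closer still between the groups: Fcer1g, the common gamma chain, stood at 16.8, 21.1, 28.9 and 21.8 CPM and Tyrobp (DAP12) at 13.5, 15.7, 16.4 and 18.1 CPM. Their log2 fold changes were -0.42 and -0.24, with SEs of 0.27 and 0.25.

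The secreted products of macrophages did not all follow the same pattern. Lyz2, the lysozyme M of myeloid cells (chromosome 10 of mm10, 117277331 to 117282321), stood at 109, 114, 168 and 271 CPM. The INK128 pair was below both controls, and the log2 fold change was -0.97 (SE 0.28, adjusted p = 0.0956 in edgeR and 0.0179 in DESeq2). Its near-identical neighbour Lyz1 had only 10 to 92 counts per library against 1997 to 6537 for Lyz2, and how reads were divided between them is uncertain. C1qa, C1qb and C1qc encode the 3 chains of C1q, which starts the classical complement pathway and which tissue macrophages make. C1qa stood at 83.9, 67.2, 79.5 and 92.6 CPM, and the groups overlapped (log2 fold change -0.19, SE 0.20). C1qb stood at 69.7, 70.2, 98.7 and 89.7 CPM and C1qc at 54.4, 40.6, 77.8 and 72.0 CPM, without overlap. Their log2 fold changes were -0.43 and -0.66 (SE 0.17 and 0.22, adjusted p = 0.154 and 0.119, edgeR). The endosomal protein Cd68 stood at 8.22, 14.6, 15.5 and 14.0 CPM, so that only INK128 1 was low. Aif1, the actin-binding protein Iba1, overlapped fully, at 9.86, 7.63, 7.60 and 10.4 CPM (log2 fold change -0.04, SE 0.35).

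Set against C1q in the same library, the other macrophage genes divided further, a comparison added after the values had been seen. Each gene's counts were taken as a percentage of the summed counts of C1qa, C1qb and C1qc. Of the 16 other genes, 8 had a lower percentage in both INK128 libraries than in both controls (50%, against 18.4% of all genes tested), 3 a higher one (18.8%, against 49.2% of all genes) and 5 overlapped. The 8 were Adgre1, Csf1r, Lyz2, Mrc1, Fcgr1, Fcgr2b, Fcgr3 and Mpeg1, and the 3 were Cd163, Aif1 and Trem2. Mpeg1 amounted to 12.3%, 12%, 24.9% and 42.7% of C1q. Fcgr2b amounted to 8.25%, 9.07%, 22.3% and 13%. For Lyz2 the INK128 libraries reached 52.6% and 64.3%, and control 1 stood barely above at 65.5% while control 3 stood at 106%. Cd163 gave 1.37% and 3.13% with INK128 and 1.19% and 0.928% in controls. Other genes were also barely apart. Aif1 gave 4.74%, 4.29%, 2.97% and 4.09%, and Trem2 3.58%, 4.65%, 3.39% and 1.07%. On the lower side Mrc1 gave 16.5%, 16.4%, 25.8% and 17.2%, and Fcgr3 6.88%, 7.89%, 8.55% and 8.32%.

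**Figure D3:**
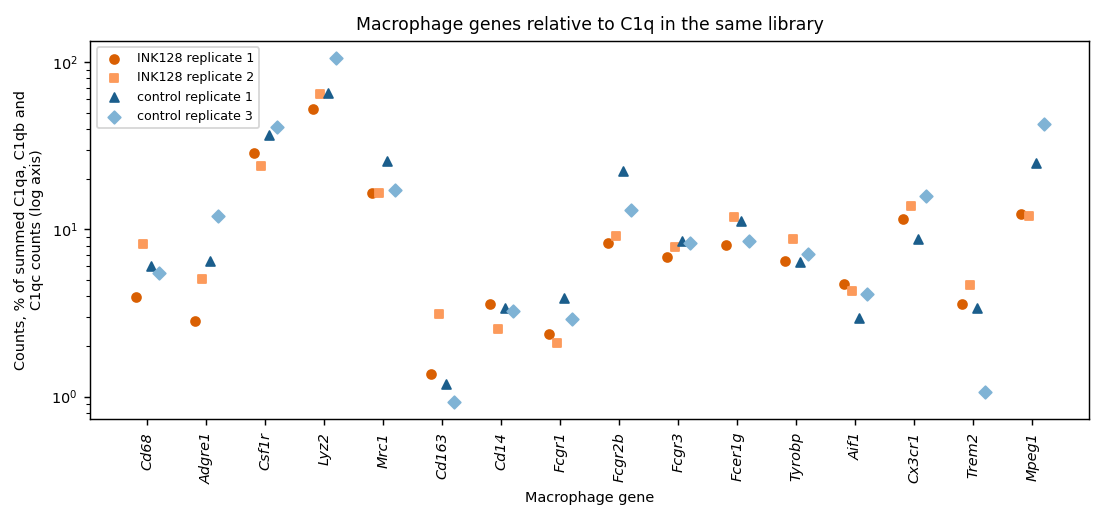
Counts of 16 macrophage genes as a percentage of the summed C1qa, C1qb and C1qc counts of the same library (log axis), 1 point per library. Mpeg1 lies at 12.3% and 12% with INK128 and at 24.9% and 42.7% in controls. Cd163, Aif1 and Trem2 lie higher in both INK128 libraries than in both controls, Aif1 and Trem2 only barely.

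T cell genes were rare in all 4 libraries, and control 3 stood apart from the other 3. The 9 genes summed to 12.0, 13.8, 15.6 and 53.6 CPM. Control 1 thus lay near the INK128 pair, and control 3 was 3.44-fold above control 1. In all 8 tested genes control 3 exceeded control 1 by more than 1.5-fold, against 21.5% of all genes tested. All 8 had a log2 fold change below 0 (median -1.28, and -0.41 without control 3), and in 5 both INK128 libraries lay below both controls (62.5%, against 32.9% of all genes). DESeq2 called 2 lower, Cd4 and Cd3e (25%, against 13.6% of all genes), and both had passed the filter through the controls alone, as had Cd8a and Cd5. Of the 4 T cell genes above a mean CPM of 1 in both groups, 1 was lower in both INK128 libraries than in both controls (25%, against 30.2% of all such genes). DESeq2 called 0 of the 4, against 11.4% of such genes lower and 11% higher.

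Cd4, the co-receptor of helper T cells, which some dendritic cells also carry, had the lowest log2 fold change of the T cell genes (chromosome 6 of mm10, 124864692 to 124888221). It stood at 0.548, 1.08, 2.78 and 14.3 CPM, so that the groups did not overlap but most of the difference lay in control 3. The log2 fold change was -3.38 (SE 0.98, adjusted p = 0.0989 in edgeR and 0.00441 in DESeq2), and it was -1.75 without control 3 and -4.11 without control 1. The chains of CD3 pass on the signal of the T cell receptor. Cd3e stood at 0.658, 0.515, 1.56 and 6.13 CPM, with a log2 fold change of -2.71 (SE 0.87, adjusted p = 0.114 in edgeR and 0.0395 in DESeq2). It was -1.41 without control 3 and -3.38 without control 1. Cd3g stood at 1.59, 2.20, 2.30 and 7.04 CPM and Cd3d at 2.19, 0.842, 0.999 and 4.06 CPM. For Cd3d the groups overlapped, and its log2 fold change of -0.74 became 0.58 without control 3. Cd8a, the co-receptor of cytotoxic T cells, stood at 0.219, 0.842, 1.78 and 3.06 CPM (log2 fold change -2.17, SE 0.86), and its log2 fold change was -3.45 without INK128 2 and -1.53 without INK128 1. Its partner Cd8b1, which was too low to be tested, stood at 0.164, 0.655, 0.521 and 1.70 CPM. Of the remaining T cell genes, Cd5, an inhibitory receptor, stood at 0.986, 1.03, 1.48 and 3.35 CPM without overlap. Cd2, an adhesion receptor, stood at 0.932, 1.26, 0.999 and 4.02 CPM, and Lck, the kinase that starts T cell receptor signalling, at 4.71, 5.33, 3.17 and 9.94 CPM. Both overlapped between the groups, and without control 3 their log2 fold changes of -1.19 and -0.38 became 0.14 and 0.66.

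Of the 6 B and plasma cell genes, those for antibody chains or the J chain separated the groups, and those for membrane proteins of B cells overlapped. The further list described below did not keep this division. There the light chain Iglc2 overlapped and the membrane receptor Cd22 did not. The 6 genes summed to 35.5, 17.4, 79.8 and 115 CPM, a 3.69-fold difference between group means. The log2 ratio of -1.88 ranged from -2.49 to -1.46 when 1 library was left out, and the difference was smaller without Igkc. Igkc, the constant part of the kappa light chain (chromosome 6 of mm10, 70726435 to 70726966), stood at 13.3, 3.74, 48.6 and 65.3 CPM. The log2 fold change was -2.75 (SE 0.66, adjusted p = 0.076 in edgeR and 0.000155 in DESeq2), and it was -3.93 without INK128 1 and -2.12 without INK128 2. Jchain, which joins IgM and IgA into polymers and marks plasma cells, stood at 6.19, 2.20, 12.8 and 23.2 CPM. Its log2 fold change was -2.10 (SE 0.64, adjusted p = 0.106 in edgeR and 0.0112 in DESeq2), and it lay between -3.04 (without INK128 1) and -1.55 (without INK128 2) when 1 library was left out. Ighm, the heavy chain of IgM, stood at 11.5, 9.12, 15.4 and 22.3 CPM (log2 fold change -0.87, SE 0.32, adjusted p = 0.145, edgeR). INK128 2 held 0.282 times the Igkc level of INK128 1, so the pair that was close over all genes was not close here.

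The membrane proteins of B cells among these genes overlapped between the groups and stood near the limit of testing. Ms4a1 (CD20) stood at 2.52, 0.982, 1.82 and 1.53 CPM, with a log2 fold change of 0.06 (SE 0.69). Cd79b and Cd79a, the signalling chains of the B cell receptor, stood at 1.04, 0.468, 0.825 and 1.62 CPM and at 1.04, 0.889, 0.347 and 1.41 CPM.

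NK and cytotoxic genes summed to 2.14, 3.56, 2.95 and 9.11 CPM, again with control 3 apart from the other 3 libraries. Nkg7, a granule protein of cytotoxic cells, stood at 1.53, 2.90, 2.08 and 4.89 CPM. Gzma and Gzmb, the granzymes A and B that cytotoxic cells release into their targets, stood at 0.438, 0.468, 0.391 and 3.19 CPM and at 0.164, 0.187, 0.478 and 1.04 CPM. Both tested genes, Nkg7 and Gzma, had a log2 fold change below 0 (-0.65 and -1.97), and without control 3 they stood at 0.10 and 0.21. The neutrophil genes S100a8 and S100a9, the calprotectin chains that neutrophils hold in bulk, gave only 7, 4, 0 and 13 counts and 22, 8, 2 and 15 counts. Their sum of 1.59, 0.561, 0.0868 and 1.16 CPM overlapped between the groups.

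**Figure D4:**
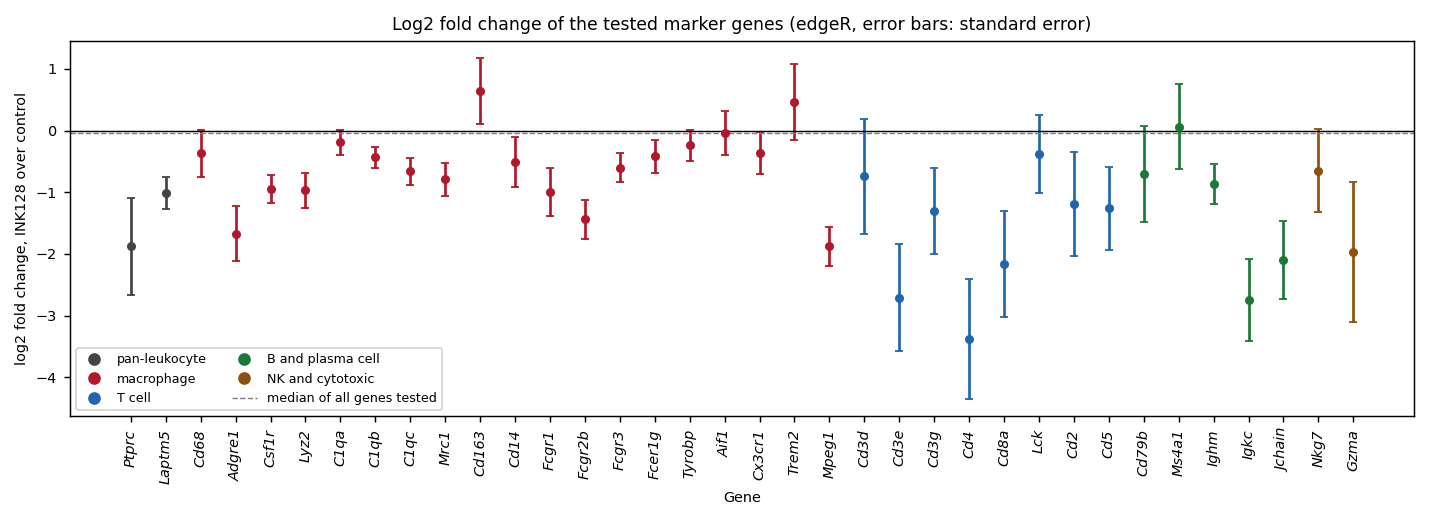
Log2 fold change (INK128 over control) of 36 tested leukocyte marker genes from edgeR's quasi-likelihood fit, coloured by lineage, with error bars of 1 standard error and the median of all tested genes as a dashed line at -0.04. All but Cd163, Trem2 and Ms4a1 lie below 0. Cpa3 and Mcpt4, at or near 0 counts with INK128, are left out.

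Mast cell genes were the only ones of the 43 that were at or near 0 counts in both INK128 libraries and well above the floor of 3 counts in both controls. Cpa3, the mast cell carboxypeptidase (chromosome 3 of mm10, 20215620 to 20242181), gave 1, 0, 226 and 71 counts. In the pooled libraries this was 249-fold lower with INK128 (95% counting interval 44.4 to 9885), and the adjusted p was 0.0561 in edgeR and 7.39e-05 in DESeq2. Mcpt4, a chymase stored in the granules of connective tissue mast cells (chromosome 14 of mm10, 56059629 to 56062313), gave 0, 0, 177 and 39 counts. Against a floor of 3 counts over the INK128 group (0.0757 CPM), Mcpt4 was at least 60.5-fold lower with INK128. Without control 1 the bound for Mcpt4 was 21.3-fold and the ratio for Cpa3 117-fold (interval 20.2 to 4666), and without control 3 they were 101-fold and 389-fold (69.1 to 15423). Its adjusted p was 0.0691 in edgeR and 5.11e-05 in DESeq2. Both mast cell genes were tested only because of their level in the controls, so these p-values describe genes that the filter let in where they were high. The intervals and bounds cover counting error only. Unlike the T cell genes, both were higher in control 1, at 9.81 and 7.68 CPM, than in control 3, at 2.94 and 1.62 CPM. Mast cell genes made up 1.66% and 0.351% of the counts of the 43 genes in controls and 0.00834% and 0% with INK128. Both promoters hold GATAA, the core letters bound by GATA factors, on either strand (as GATAA or TTATC) within the 300 bases, as do 26.5% of the 34 promoters and 25.4% of all promoters. This motif was chosen after the values had been seen. The 150 bases before the start are given along the minus strand, with the letters in capitals, for Cpa3 at chr3:20242182-20242331 and Mcpt4 at chr14:56062311-56062460.
Cpa3: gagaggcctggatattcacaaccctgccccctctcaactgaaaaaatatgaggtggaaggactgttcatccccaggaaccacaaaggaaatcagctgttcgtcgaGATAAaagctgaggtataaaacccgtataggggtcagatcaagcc
Mcpt4: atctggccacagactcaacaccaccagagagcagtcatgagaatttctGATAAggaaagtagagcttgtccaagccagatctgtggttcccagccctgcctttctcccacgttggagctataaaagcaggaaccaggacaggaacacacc

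A further 97 leukocyte genes, listed by lineage as known markers, were set beside the 43. Of these, 66 were tested, 60 had a log2 fold change below 0 and the median was -1.18 (-0.58 without control 3). In 45 (68.2%, against 32.9% of all genes tested) both INK128 libraries lay below both controls, and in 4 both lay above. edgeR called 0 of the 66 over the wider set of genes, where 22 were lower (33.3%, against 17.6% of all genes) and 1 was higher (15.1% of all genes) at an unadjusted p below 0.05, and limma voom called 0 lower. DESeq2 called 15 of the 66 lower (22.7%, against 13.6% of all genes) and 1 higher (10.2% of all genes). Of the 66, 14 had passed the filter through the controls alone and 0 through INK128 alone. Of the 52 above a mean CPM of 1 in both groups, 32 lay below both controls (61.5%, against 30.2% of such genes), and DESeq2 called 12 lower (23.1%, against 11.4%) and 1 higher (11% of such genes). With the mean CPM above 10, edgeR called 1 of 23, Siglec1 (sialoadhesin, a macrophage receptor for sialylated glycans), lower (3.04% of all genes), and DESeq2 called 10 lower (15.1% of all genes) and 1 higher (13.6%). Siglec1, which stood at 3.73, 5.43, 20.8 and 30.7 CPM, is named because it was the single call. The median was -1.22 in 18 pan-leukocyte genes, -0.85 in 17 macrophage genes, -1.41 in 7 dendritic cell genes and -1.45 in 13 T cell genes. The B and plasma cell, NK, neutrophil and mast cell lists had 2 or 3 tested genes each, and no median is given for them.

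The most abundant genes of each of these lists give the detail. Lcp1, an actin bundler of all leukocytes, stood at 41.7, 40.5, 65.9 and 115 CPM, and Arhgdib at 17.6, 21.4, 26.9 and 39.4 CPM. Neither overlapped between the groups (log2 fold changes -1.14 and -0.77). Ctss, the cathepsin that trims antigens for presentation, stood at 42.6, 33.5, 61.8 and 88.7 CPM, with an adjusted p of 0.0848 in edgeR and 0.0194 in DESeq2. Itgax (CD11c) of dendritic cells stood at 3.12, 3.98, 3.56 and 15.3 CPM, with control 3 apart, and Zbtb46, a factor of classical dendritic cells and of endothelium, at 28.7, 28.3, 27.9 and 29.9 CPM. Of the 13 tested genes of the T cell list, 11 had a log2 fold change below 0. In 8 both INK128 libraries lay below both controls (61.5%, against 32.9% of all genes), and in 2 above (15.4%, against 33.1%). The 2 most abundant genes, Tcf7 and Foxp3, were not among the 8. Tcf7, a factor of naive T cells, overlapped at 45.7, 48.2, 67.4 and 44.3 CPM. Foxp3, the factor of regulatory T cells, was higher with INK128, at 16.7, 18.7, 7.47 and 7.79 CPM. Its log2 fold change was 1.21 (SE 0.27, adjusted p = 0.0686 in edgeR and 0.00796 in DESeq2). Its exons overlap those of 4 other counted genes over 2082 bases, so its reads are uncertain. With INK128, Tcf7 and Foxp3 each exceeded the sum of the 9 T cell genes (12.0 and 13.8 CPM). Whether their reads came from T cells was not tested.

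Among the rarer lineages, control 3 stood apart again. Cd22, an inhibitory receptor of B cells, stood at 0.767, 0.561, 0.825 and 4.72 CPM, and Iglc2, a lambda light chain, at 1.37, 0.281, 0.347 and 4.68 CPM. Without control 3 the log2 fold change of Cd22 went from -2.06 to -0.32 and that of Iglc2 from -1.61 to 1.20. Ccl5, a chemokine of cytotoxic cells, stood at 2.74, 4.63, 4.47 and 8.08 CPM, and Klrk1 (NKG2D) at 1.26, 2.01, 0.955 and 4.6 CPM. Each of these was highest in control 3. So were the neutrophil genes Ltf (lactoferrin), at 1.92, 0.187, 3.82 and 13.3 CPM, and Csf3r, the receptor for the neutrophil growth factor, at 0.986, 1.26, 0.999 and 3.31 CPM. The other listed neutrophil genes were too low to be tested, at 15 counts or fewer per library. Of them, Camp, Retnlg and Ngp were higher in both INK128 libraries than in both controls, Mmp8 was lower, and the rest overlapped. The mast cell genes had their highest level in control 1 here too: Tpsb2, a tryptase, stood at 0, 0.0468, 14.5 and 3.69 CPM, and Hdc, which makes histamine, at 14.2, 16.0, 51.8 and 19 CPM. Hdc thus stayed well above 0 with INK128 where the granule proteases did not.

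Markers of other tissues differed between the same libraries. Of the 15 kidney nephron markers, 13 were lower in both INK128 libraries than in both controls (86.7%, against 32.9% of all genes tested). Their median log2 fold change was -4.06. Their sum was highest in control 3 and next highest in control 1, as were the pan-leukocyte, macrophage, T cell and B and plasma cell sums. The NK and neutrophil sums did not follow this order, since control 1 lay below INK128 2 in both, and the mast cell sum was highest in control 1. The kidney holds macrophages and other leukocytes of its own. The 7 blood endothelium markers summed to 391, 426, 487 and 636 CPM and the 6 erythroid markers to 99.6, 92.9, 21.8 and 55.8 CPM, the latter higher with INK128. Granulosa cell markers (9 genes, 6172, 7993, 3170 and 6221 CPM) and theca and stroma markers (7 genes, 11726, 10763, 8212 and 12184 CPM) were the most abundant lists in all 4 libraries, and both overlapped between the groups. Inha, a subunit of inhibin, and the collagens and Dcn of general stroma supplied a large part of these sums, and single ovarian markers differed widely between the controls. Amh, the hormone of growing follicles, stood at 134, 81.5, 426 and 5.01 CPM. The steroidogenic enzymes Cyp17a1 and Cyp11a1 stood at 362, 429, 16.6 and 162 CPM and at 897, 1177, 69.2 and 3960 CPM.

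**Figure D5:**
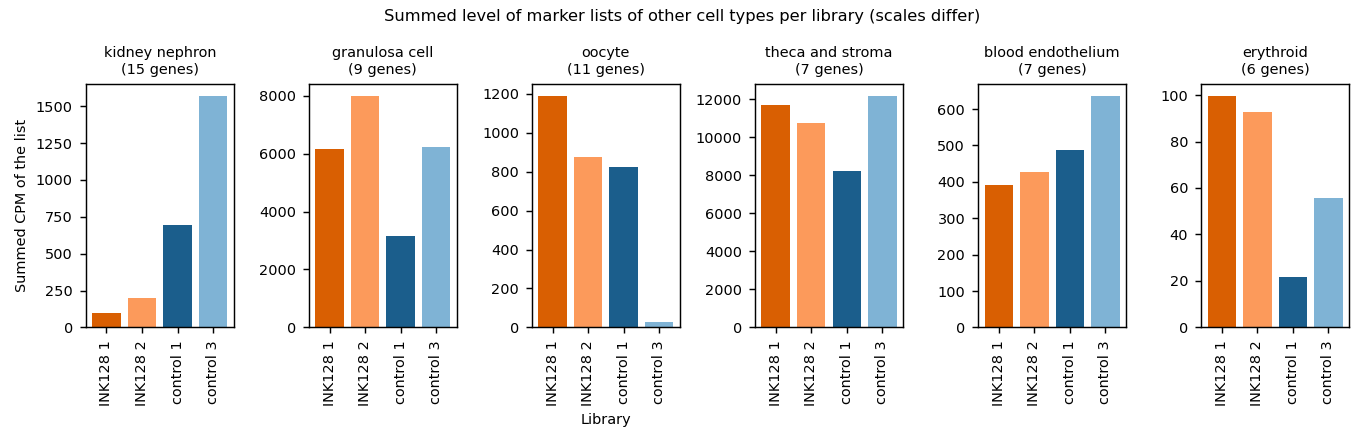
Summed CPM of marker lists of kidney nephron, granulosa cells, oocytes, theca and stroma, blood endothelium and erythroid cells (bars, each panel with its own axis from 0) in the 4 rOvary libraries, with INK128 in orange and controls in blue. The kidney sum is 97.2 and 202 CPM with INK128 and 692 and 1569 CPM in controls, and the oocyte sum is 27.5 CPM in control 3.

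Exon length was set beside the fold changes, since long and short transcripts can be recovered unequally between libraries. Across the 38 tested genes Pearson's r of the log2 fold change with log2 exon length was 0.13, and across 17531 tested genes with a length it was -0.12. Spearman's rho was -0.06 and -0.28, so that the sign for the 38 turned with the measure, and in the 19 macrophage genes r was -0.20 and rho -0.32. Genes are not independent replicates, and these are descriptions. With offsets for exon length, the median of the 38 was -0.95 and that of all genes 0.10.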

How the data were processed

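RNA-seq was analysed from 2 INK128 and 2 control rOvaries, grouped by the treatment label. According to the labels and methods, the authors prepared polyA libraries (NEBNext Ultra), used Trimmomatic for trimming, HISAT2 for alignment to mm10 and featureCounts for counting on an annotation named RefGene. Versions and strand settings are not given in the sources used here. The authors deposited raw counts per gene symbol, with 0 columns that could not be mapped to a library, and 19130209 to 23029089 counts per library. Of 54021 symbols, 53447 matched GENCODE M21 for lengths and positions.

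Counts were fitted with edgeR 4.0.16 in R 4.3.3 (TMM, robust quasi-likelihood test, Benjamini-Hochberg) over all genes with a mean CPM above 1, and again above 10. A call needed over 1.5-fold and an adjusted p under 0.05. The SE of a log2 fold change is its size divided by the square root of the F statistic. DESeq2 1.42.0, limma 3.58.1 (voom), other scalings, filters, exon length offsets and leaving out each library were alternatives. The scripts were tested on simulated data. All 43 genes are named, with the 2 most abundant genes of each further leukocyte list, of which 1 is not reported here. The marker genes, lists and alternatives were chosen with earlier results of these data known. Leaving out a control from the counts of groups that do not overlap, the counts over genes above a mean CPM of 1 in both groups, the mast cell bounds against each control, the ratio to C1q and the GATAA motif were added after the values were seen. RefSeq promoters were of GRCm38.p6, the patch release of mm10's assembly, and protein sequences were not used here.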

Additional observations from a re-analysis of the deposited data

How the results depend on the processing

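No paired analysis was possible because the groups share only replicate number 1. The number of marker genes called among the 38 was 0 in edgeR with a mean CPM above 1, and became 13 with DESeq2 and 8 without a filter on low counts. Among the 19 with a mean CPM above 10 it was 1 (Mpeg1), and became 11 with DESeq2, 0 with limma voom and 0 with exon length offsets. Leaving out 1 library gave 0 to 23 calls (22 lower and Trem2 higher without control 1, 13 without control 3, 0 without either INK128 library) and 0 to 11 with a mean CPM above 10. Without 1 control, the close INK128 pair alone gave the spread, and the lone control was assumed to vary like it. Over all genes, the calls with a mean CPM above 10 were 357 lower and 358 higher in edgeR, 1772 and 1595 in DESeq2, 599 and 286 on library totals (67.7% of calls lower, against 49.9%), 790 and 698 when 2 libraries had to pass the filter, and 0 of 11758 with limma voom and with exon length offsets (smallest adjusted p 0.0748 with the offsets). With a mean CPM above 1 they were 0, against 2402 lower and 1791 higher in DESeq2 and 1543 and 1171 without a filter. Without control 1 these counts were 4087 and 3785 above a mean CPM of 1 and 2696 and 2660 above 10, and without control 3 they were 3777 and 3391, and 2512 and 2479. Library totals moved the median of all genes to -0.22. Apart from the settings themselves, the cause of these changes was not tested.

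Without 1 library the median log2 fold change lay between -1.11 and -0.57 for the 38 genes, between -0.63 and -0.47 for the macrophage genes, between -1.87 and -0.41 for the T cell genes and between -1.53 and -0.58 for the further lists. The macrophage median of -0.51 was -0.57 with limma voom, -0.68 on library totals and -0.61 with length offsets. The log2 ratio of the summed macrophage level was -0.93 on library totals, against -0.75. Without its most abundant gene, the log2 ratio of the sum was -1.88 for the pan-leukocyte genes, -1.18 for B and plasma cell genes and -2.02 for NK genes. Leaving out 1 library, the ratio ranged from -2.06 to -0.28 (T cell), -2.49 to -1.46 (B and plasma cell), -1.68 to -0.05 (NK) and -0.15 to 3.63 (neutrophil, where it turned).

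Ms4a1 turned to -0.12 with limma voom and -0.11 on library totals, and Zbtb46 to 0.37 with length offsets. Leaving out 1 library turned the direction of Ms4a1 (-0.78 to 0.57), Zbtb46 (-0.07 to 0.03), Aif1 (-0.25 to 0.20), Cx3cr1 (-0.73 to 0.11), Trem2 (-0.14 to 1.52), Cd3d (-1.58 to 0.58), Lck (-0.98 to 0.66), Cd2 (-1.86 to 0.14), Nkg7 (-1.19 to 0.10), Gzma (-2.80 to 0.21), Iglc2 (-3.14 to 1.20), Csf3r (-1.55 to 0.17), Klrk1 (-1.48 to 0.78) and Tcf7 (-0.52 to 0.08). Of the single-gene values under all alternatives, 490 kept their direction and side of the threshold, 82 kept their direction and passed it, and 19 turned.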
